A study of Mus musculus with 8 samples.

Results

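The 10 genes described here encode the enzymes that build, elongate and desaturate fatty acids: Acly, Acaca, Acacb, Fasn, Scd1, Scd2, Elovl5, Elovl6, Fads1 and Fads2. They were chosen by symbol, all 10 had a row among the 24419 genes of the count table, and all 10 stood among the 13646 genes that passed a filter on low counts. The RNA came from fibroadipogenic progenitors (FAPs), muscle stromal cells able to form fibroblasts and fat cells, of male mice of the strain C57BL/6J. From hindlimb muscle, cells positive for SCA-1 and Hoechst and lacking CD31, CD45, α7-integrin and propidium iodide were sorted.

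In the miR-27a-KD group (3 libraries), the mice carried in the pancreas KPCY cells, a mouse pancreatic cancer line, that had been transduced with a lentiviral inhibitor of miR-27a-3p. In the KPC Scr group (3 libraries), the KPCY cells carried a lentiviral scrambled sequence. In the sham group (2 libraries), the mice had surgery and no tumour cells. Each tumour group rests on 1 puromycin-selected cell line, and the inhibitor was in the implanted cells and not in the sorted FAPs. The labels call the libraries biological replicates and give no age, collection time or batch. The comparison of KPC Scr with sham asks how FAPs of tumour-bearing mice differ, and that of miR-27a-KD with KPC Scr how they differ when the tumour cells have less miR-27a-3p activity.

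Fatty acid synthesis starts in the cytosol, where citrate from mitochondria is split into acetyl-CoA by ATP citrate lyase (Acly). Acetyl-CoA carboxylase makes malonyl-CoA, which fatty acid synthase (Fasn) joins into palmitate. Elongases of the Elovl family lengthen these chains and dietary ones, the stearoyl-CoA desaturases Scd1 and Scd2 put in the first double bond, and the desaturases Fads1 and Fads2 make polyunsaturated fatty acids. Many of these genes are known targets of the transcription factor SREBP-1, and fat cells arising from FAPs make much use of the pathway.

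Levels are given as normalised CPM, each gene's reads as a share of its library's total, after scaling between libraries by TMM. Total counts ran from 15647436 to 28340450 per library, and the 10 genes together took between 0.0821% and 0.224% of them. KPC Scr library 2 stood apart from its group: on the first principal component of all genes, which held 61.1% of the variance, it lay at -12.3, against 115 and 92.0 for KPC Scr libraries 1 and 3 and -47.7 to -32.3 for the other 5 libraries. Many results are therefore given with and without it.

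Several FAP markers differed between libraries. Pdgfra, the receptor that defines these cells, lay between 1256 and 1588 CPM in every library. Cd34, a surface marker of progenitors, had 1914, 1925 and 1805 CPM in miR-27a-KD libraries, against 213, 1179 and 241 CPM in KPC Scr libraries and 2250.3 and 2156 CPM in sham libraries. It was thus low in all KPC Scr libraries, and by far the most in libraries 1 and 3. Of the 9 genes of the progenitor list, 7 had a negative log2 fold change in KPC Scr over sham. The median of the 9 was -0.96, and edgeR called 0. An unadjusted p under 0.05 was found for 1 higher and 3 lower genes of the 9, where 16.7% of all genes had such a p higher and 12.5% lower. Without KPC Scr library 2, 7 were called lower (Cd34, Col1a1, Col3a1, Dpp4, Ly6a, Lum and Pi16) and Dcn was called higher. That fit called 25.6% of all genes lower and 25.4% higher. In miR-27a-KD over KPC Scr the same 8 genes were then called in the opposite direction. There 27.3% of all genes were called higher and 26.6% lower. These markers differ between the same groups as the enzymes below, and their part in the enzyme differences was not tested.

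Across the 10 genes, no member passed the threshold of 0.05 on the adjusted p of edgeR's quasi-likelihood test in any of the 3 comparisons, although several came close. In KPC Scr against sham, the calls covered 1.58% of all genes (215 of 13646, 1.10% higher and 0.476% lower). The members with an unadjusted p under 0.05 numbered 7, 1 higher and 6 lower, where 29.2% of all genes had such a p (16.7% higher and 12.5% lower). In all 3 KPC Scr libraries Acly, Fasn, Scd2, Elovl6, Fads1 and Fads2 lay below both sham libraries, and Acacb lay above them. Among all genes, 20.2% lay higher and 20.8% lower without overlap. The 6 lower members of 10 thus stand against a background of about 2 in 10, and 1 higher member against as many. The members are not independent of each other, since 15 of their 45 pairs had a Pearson's r over 0.7 across the 8 libraries. These counts are therefore a description and not a test. The median log2 fold change of the members was -0.90, against 0.00 over all genes tested. The members were not chosen by these values, but earlier results of the same data were known when they were listed.

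In miR-27a-KD against KPC Scr, calls covered 0.0513% of all genes (7 of 13646, 0.00733% higher and 0.0440% lower). Among the members 5 had an unadjusted p under 0.05, 4 higher and 1 lower, against 32.4% of all genes (13.9% higher and 18.6% lower). Acly, Scd2, Elovl6 and Fads2 lay higher in all 3 miR-27a-KD libraries than in any KPC Scr library, and Acacb lay lower in all 3. Among all genes, 17.5% lay higher and 16.7% lower without overlap. The median over the members was 0.48, against 0.01 over all genes. Both comparisons use the same KPC Scr libraries, so that the opposite directions of the same genes are not independent.

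Which members passed depended on KPC Scr library 2 and on the tool. Without that library, 5 members were called by edgeR in KPC Scr against sham, Acacb higher and Acly, Scd2, Elovl6 and Fads2 lower, where 51.0% of all genes were called (25.4% higher and 25.6% lower). In miR-27a-KD against KPC Scr, 4 were then called, Acly, Elovl6 and Fads2 higher and Acacb lower, where 54.0% of all genes were called (27.3% higher and 26.6% lower). With all 8 libraries, DESeq2 called 4 members in KPC Scr against sham, 1 higher and 3 lower, and 3 in miR-27a-KD against KPC Scr, 2 higher and 1 lower. With limma-voom 0 were called in both. The share of all genes that limma-voom called is not reported here, so its 0 is no result about the members. Of all genes DESeq2 called 9.68% higher and 5.52% lower in KPC Scr against sham, and 5.80% higher and 11.2% lower in miR-27a-KD against KPC Scr. With no filter on low counts edgeR called 2 members in KPC Scr against sham, both lower, where 1.07% of all genes were called higher and 0.539% lower. It then called 0 in miR-27a-KD against KPC Scr, where 0.00567% of all genes were called higher and 0.0567% lower.

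**Figure D1:**
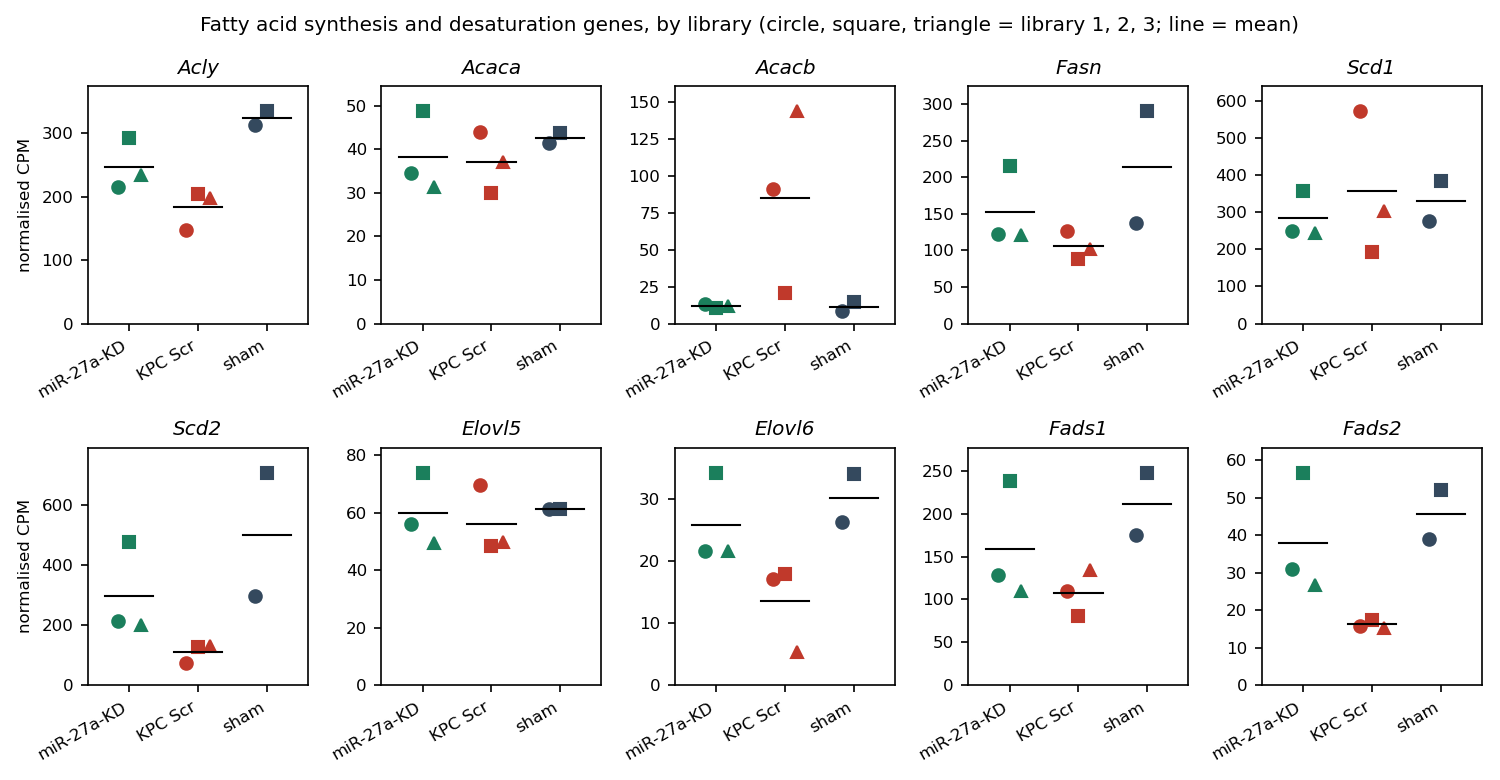
Normalised CPM of each enzyme gene (vertical axis, from 0) in the 3 miR-27a-KD, 3 KPC Scr and 2 sham libraries, with circles, squares and triangles for libraries 1, 2 and 3 and a line at each group mean. Fads2 sits at 15.2 to 17.5 CPM in KPC Scr, below every other library, and Acacb reaches 91.3 and 144 CPM in KPC Scr libraries 1 and 3.

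Acly (chr11:100476353-100528000, minus strand, mm10), which makes the cytosolic acetyl-CoA, had 215, 292 and 235 CPM in miR-27a-KD libraries 1, 2 and 3, against 148, 203 and 199 CPM in KPC Scr libraries and 313 and 334 CPM in sham libraries. The 3 groups did not overlap, with KPC Scr lowest and miR-27a-KD between the others. The log2 fold change of KPC Scr over sham was -0.82 ± 0.20 (SE, adjusted p = 0.0703 by edgeR), and -0.90 ± 0.18 without KPC Scr library 2 (adjusted p = 0.00166 by edgeR). Over the 14 alternative settings tried, the adjusted p ran from 0.00166 to 0.400. For miR-27a-KD over KPC Scr it was 0.43 ± 0.19 (SE, adjusted p = 0.147 by edgeR), and 0.51 ± 0.17 without that library (adjusted p = 0.0225 by edgeR, range over the alternatives 0.0225 to 0.382).

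The carboxylase step has 2 genes with separate uses, of which Acaca overlapped between groups and Acacb lay higher in every KPC Scr library. Acaca (chr11:84129672-84401651, plus strand) encodes the cytosolic enzyme that feeds fatty acid synthase. Acacb (chr5:114146535-114250761, plus strand) encodes the form at the mitochondrial outer membrane, whose malonyl-CoA restrains fatty acid entry into mitochondria. Acaca had 34.6, 48.7 and 31.4 CPM in miR-27a-KD libraries, against 44.0, 30.05 and 37.1 CPM in KPC Scr libraries and 41.4 and 43.8 CPM in sham libraries. The KPC Scr range crosses the sham values and those of miR-27a-KD. Its log2 fold change was -0.20 ± 0.24 in KPC Scr over sham (SE, adjusted p = 0.572 by edgeR) and 0.04 ± 0.21 in miR-27a-KD over KPC Scr (SE, adjusted p = 0.898 by edgeR). Of the distinct 59-base words of Acaca's exons, 29.0% also occur in another gene, above all the pseudogene Gm5182, so that reads from such a copy could be counted under either.

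Acacb had 12.9, 10.6 and 12.2 CPM in miR-27a-KD libraries, against 91.3, 20.96 and 144 CPM in KPC Scr libraries 1, 2 and 3 and 8.48 and 14.4 CPM in sham libraries. Every KPC Scr library lay above every other library, with library 2 nearest to them, while miR-27a-KD lay within the sham range. KPC Scr over sham gave a log2 fold change of 2.89 ± 0.69 (SE, 7.41-fold, adjusted p = 0.0645 by edgeR), and 3.35 ± 0.27 without KPC Scr library 2 (adjusted p = 3.38e-06 by edgeR, range over the alternatives 3.38e-06 to 0.416). Between miR-27a-KD and KPC Scr it was -2.83 ± 0.58 (SE, adjusted p = 0.068 by edgeR), and -3.30 ± 0.23 without that library (adjusted p = 1.14e-06 by edgeR, range over the alternatives 1.14e-06 to 0.236).

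Acacb is also a gene of fat and muscle cells, and the summed markers of each were highest in KPC Scr, though not every marker was. The summed level of the mature adipocyte list (9 genes, 6 of them above the filter) was 18.2 to 25.2 CPM in miR-27a-KD, 27.05 to 59.1 CPM in KPC Scr and 13.7 to 18.1 CPM in sham libraries. Most of the sum came from the lipase gene Lipe, at 17.3 to 21.2 CPM in miR-27a-KD, 47.2, 24.5 and 47.6 CPM in KPC Scr and 13.7 and 17.3 CPM in sham libraries. Lep was at 0 in every library, and Adipoq and Plin1 were under 1 CPM throughout. Pck1, in contrast, had 8.11 and 3.02 CPM in KPC Scr libraries 1 and 3, against at most 0.17 CPM in any other library. Cfd reached 5.86 CPM in KPC Scr library 3, but its 2.96 CPM in miR-27a-KD library 2 exceeded the 0.94 and 0.93 CPM of KPC Scr libraries 1 and 2. All 6 tested genes had a positive log2 fold change in KPC Scr over sham. Of these, 4 had an unadjusted p under 0.05 and 0 were called by edgeR. Without KPC Scr library 2, Cidec, Lipe and Pck1 were called higher among the 4 then tested, where 25.4% of all genes were. The summed muscle fibre list (9 genes) was 46.7 to 57.7 CPM in miR-27a-KD and 33.1 to 65.6 CPM in sham libraries. It was 79.8, 90.1 and 296 CPM in KPC Scr libraries 1, 2 and 3, so that library 3 was far the highest. In KPC Scr over sham 8 of its 9 genes had a positive log2 fold change and 0 were called by edgeR. Without overlap 3 of the 9 lay higher, where 20.2% of all genes did.

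Among endothelial genes the directions differed. Fabp4, a fatty acid binding protein of capillaries and fat cells, had 65.9 to 80.3 CPM in miR-27a-KD libraries, against 221, 75.2 and 215 CPM in KPC Scr libraries and 55.3 and 40.01 CPM in sham libraries. Pecam1, which encodes the CD31 that the sort excluded, had at most 49.0 CPM in miR-27a-KD, 73.0, 37.7 and 56.2 CPM in KPC Scr and 29.9 and 20.2 CPM in sham libraries. Tek, the largest part of the list's sum, lay the other way, at 357 to 408 CPM in miR-27a-KD, 201, 291 and 216 CPM in KPC Scr and 391.5 and 412 CPM in sham libraries. With all libraries edgeR called 0 of the 7 in KPC Scr over sham, 3 had an unadjusted p under 0.05 (2 higher and 1 lower), and 5 were positive. Fabp4, Kdr and Pecam1 were called higher and Tek lower once KPC Scr library 2 was left out. In that fit edgeR called 25.4% of all genes higher and 25.6% lower. The part of fat, muscle and endothelial cells in the Acacb difference was not tested. In RNA from a sorted population, fewer cells of a type and less RNA per cell cannot be told apart.

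The ratio of the sister genes within a library does not depend on the scaling between libraries. The log2 ratio of Acacb to Acaca counts was -1.42, -2.20 and -1.36 in miR-27a-KD libraries, 1.05, -0.52 and 1.95 in KPC Scr libraries and -2.29 and -1.61 in sham libraries. It was highest in the 3 KPC Scr libraries, and the miR-27a-KD and sham values overlap. The mean difference was 2.78 for KPC Scr minus sham (two-sided exact permutation p = 0.2) and -2.49 for miR-27a-KD minus KPC Scr (two-sided exact permutation p = 0.1). With these group sizes no p can go below 0.1. Adjusted over the 6 such tests, on this ratio and that of Scd1 to Scd2, the values ran from 0.30 to 0.50.

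**Figure D2:**
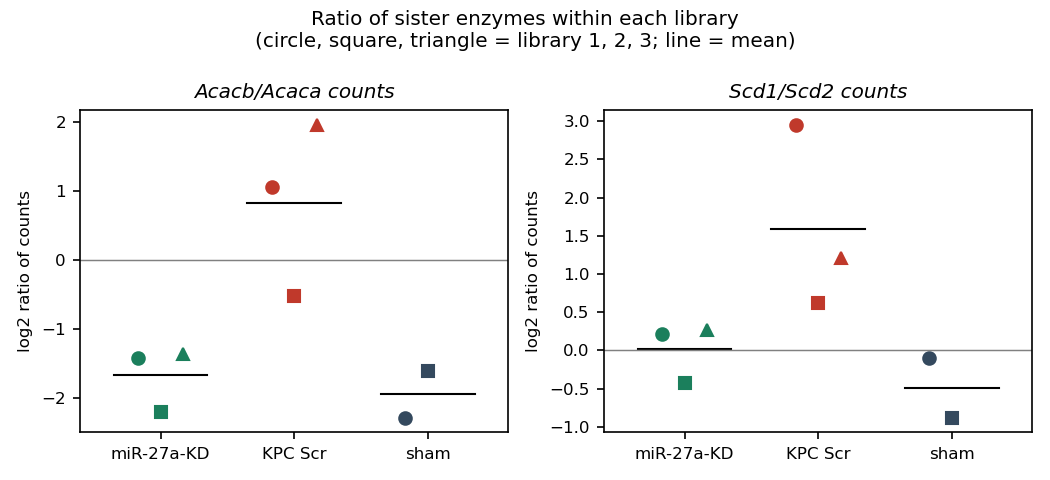
The log2 ratio of Acacb to Acaca counts (left) and of Scd1 to Scd2 counts (right) in each library (vertical axes), with symbols for libraries 1, 2 and 3 and a line at each group mean. The 3 KPC Scr libraries hold the 3 highest values in both panels, up to 1.95 on the left and 2.95 on the right.

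Fasn (chr11:120805846-120824547, minus strand), the multienzyme that makes palmitate, had 122, 216 and 121 CPM in miR-27a-KD libraries, against 127, 88.8 and 101 CPM in KPC Scr libraries and 138 and 290.4 CPM in sham libraries. All KPC Scr libraries lay below both sham libraries, by a narrow margin for library 1, and they overlapped miR-27a-KD. The log2 fold change of KPC Scr over sham was -1.02 ± 0.35 (SE, adjusted p = 0.117 by edgeR), with a range of adjusted p over the alternatives of 0.0573 to 0.562. The size of this difference rested on sham library 2, since without it the log2 fold change was -0.40. In miR-27a-KD over KPC Scr it was 0.53 ± 0.32 (SE, adjusted p = 0.262 by edgeR, range over the alternatives 0.226 to 0.693).

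The DNA before the start of Fasn and of Acacb is shown because these members lay on opposite sides of sham in KPC Scr. Acacb was picked for display after its values were seen. The sequences are the 250 bases before the RefSeq start in GRCm38.p6, 5′ to 3′ on the strand of the gene, with capitals marking each CCAAT box, the element bound by NF-Y, on either strand. The Fasn sequence is chr11:120824548-120824797 on the minus strand, and no GENCODE gene overlaps it. The Acacb sequence is chr5:114165268-114165517 on the plus strand, before a start inside the gene, and 9 of its bases lie in a GENCODE exon and the others in an intron.
Fasn: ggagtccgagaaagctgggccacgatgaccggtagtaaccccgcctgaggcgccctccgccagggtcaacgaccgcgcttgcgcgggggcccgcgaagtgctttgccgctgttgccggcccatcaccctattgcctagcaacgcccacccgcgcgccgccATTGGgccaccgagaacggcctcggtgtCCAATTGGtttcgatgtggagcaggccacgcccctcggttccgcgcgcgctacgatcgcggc
Acacb: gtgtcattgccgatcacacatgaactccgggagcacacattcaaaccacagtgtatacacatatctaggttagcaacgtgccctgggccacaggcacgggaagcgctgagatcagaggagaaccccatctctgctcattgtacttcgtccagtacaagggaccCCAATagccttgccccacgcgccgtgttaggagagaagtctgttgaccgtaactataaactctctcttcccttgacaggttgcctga
In Fasn the CCAAT matches begin 90, 62 and 59 bases before the start, on the minus, plus and minus strand, and the last pair overlap each other. In Acacb the match begins 87 bases before the start, on the plus strand.

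A RefSeq promoter was at hand for 7 of the 10 genes, and the entries for Scd1, Scd2 and Fads1 are missing. In windows from 250 bases before to 50 after the start, CCAAT or its reverse complement stood in 4 of these 7 (Acly, Acacb, Fasn and Elovl5), against 37.4% of all 32851 mouse promoters of that length. The E-box CACGTG stood in 1 of 7 (Elovl5), against 7.15% of all promoters. The sterol regulatory element searched as TCACNCCAC on both strands stood in 0 of 7, against 1.24% of all promoters, which says only that these letters are not in these windows.

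Of the elongases, Elovl5 overlapped between groups, and Elovl6 lay lower in every KPC Scr library than in any other. Elovl5 (chr9:77917364-77984519, plus strand), which lengthens polyunsaturated chains, had 55.9, 73.8 and 49.6 CPM in miR-27a-KD libraries, against 69.7, 48.5 and 49.7 CPM in KPC Scr libraries and 61.2 and 61.4 CPM in sham libraries. All 3 groups overlapped, and its log2 fold change was -0.13 ± 0.23 in KPC Scr over sham (SE, adjusted p = 0.710 by edgeR) and 0.09 ± 0.21 in miR-27a-KD over KPC Scr (SE, adjusted p = 0.762 by edgeR).

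Elovl6 (chr3:129532355-129638495, plus strand), which lengthens the palmitate that Fasn makes, had 21.6, 34.2 and 21.6 CPM in miR-27a-KD libraries, against 17.1, 17.9 and 5.35 CPM in KPC Scr libraries and 26.3 and 34.0 CPM in sham libraries. KPC Scr lay below both other groups in every library, with library 3 far under its group, and miR-27a-KD overlapped sham. For KPC Scr over sham the log2 fold change was -1.14 ± 0.43 (SE, adjusted p = 0.133 by edgeR), and -1.34 ± 0.43 without KPC Scr library 2 (adjusted p = 0.0303 by edgeR, range over the alternatives 0.0303 to 0.431). For miR-27a-KD over KPC Scr it was 0.91 ± 0.40 (SE, adjusted p = 0.149 by edgeR), and 1.11 ± 0.40 without that library (adjusted p = 0.0454 by edgeR, range over the alternatives 0.0454 to 0.374).

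Of the stearoyl-CoA desaturases, Scd2 lay lower in every KPC Scr library than in any other, and Scd1 overlapped between groups. Both genes make oleate and palmitoleate, Scd1 mainly in liver and fat and Scd2 in brain and many other mouse tissues. Scd2 (chr19:44293674-44306864, plus strand) had 216, 477 and 202 CPM in miR-27a-KD libraries, against 73.7, 126 and 131 CPM in KPC Scr libraries and 296 and 708.5 CPM in sham libraries. The highest KPC Scr library lay below the lowest miR-27a-KD and the lowest sham library, and the values inside the miR-27a-KD and sham groups differed more than those inside KPC Scr.

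The log2 fold change of Scd2 in KPC Scr over sham was -2.19 ± 0.47 (SE, 4.57-fold lower, adjusted p = 0.0547 by edgeR), and -2.30 ± 0.66 without KPC Scr library 2 (adjusted p = 0.034 by edgeR). DESeq2 called it on all 8 libraries (-2.18, adjusted p = 0.000223), as did edgeR with no filter on low counts (-2.21, adjusted p = 0.0436), and over the alternatives the adjusted p ran from 0.000223 to 0.311. In miR-27a-KD over KPC Scr the log2 fold change was 1.44 ± 0.43 (SE, 2.71-fold higher, adjusted p = 0.0821 by edgeR), and 1.54 ± 0.61 without that library (adjusted p = 0.0839 by edgeR, range over the alternatives 0.0113 to 0.249).

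Scd1 (chr19:44394455-44407879, minus strand) had 250.2, 356 and 243 CPM in miR-27a-KD libraries, against 571, 193 and 302 CPM in KPC Scr libraries and 276 and 384 CPM in sham libraries. KPC Scr held both its highest and its lowest value, in libraries 1 and 2, so that all groups overlapped. The log2 fold change was 0.11 ± 0.41 in KPC Scr over sham (SE, adjusted p = 0.869 by edgeR) and -0.33 ± 0.36 in miR-27a-KD over KPC Scr (SE, adjusted p = 0.531 by edgeR). Without KPC Scr library 2 these were 0.41 ± 0.31 (adjusted p = 0.292 by edgeR) and -0.64 ± 0.28 (adjusted p = 0.0822 by edgeR), and without KPC Scr library 1 both turned sign, to -0.42 and 0.19. Exon words of 59 bases shared with other genes made up 3.74% of Scd1 and 2.84% of Scd2, which include words that the pair share.

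The log2 ratio of Scd1 to Scd2 counts was 0.22, -0.42 and 0.27 in miR-27a-KD libraries, 2.95, 0.62 and 1.21 in KPC Scr libraries and -0.10 and -0.88 in sham libraries. Each KPC Scr library thus had more Scd1 than Scd2 reads, by the most in library 1, and both sham libraries had fewer. The mean difference was 2.09 for KPC Scr minus sham (two-sided exact permutation p = 0.2) and -1.57 for miR-27a-KD minus KPC Scr (two-sided exact permutation p = 0.1).

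Fads2 (chr19:10062765-10101746, minus strand), which takes the first desaturation step on dietary polyunsaturated fatty acids, had the tightest KPC Scr values among the members. It had 30.8, 56.6 and 26.6 CPM in miR-27a-KD libraries, against 15.9, 17.5 and 15.2 CPM in KPC Scr libraries and 39.0 and 52.1 CPM in sham libraries. Every KPC Scr library, library 2 included, lay below every other library, and miR-27a-KD overlapped sham.

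For Fads2 the log2 fold change in KPC Scr over sham was -1.49 ± 0.31 (SE, 2.81-fold lower, adjusted p = 0.0535 by edgeR), and -1.54 ± 0.34 without KPC Scr library 2 (adjusted p = 0.00468 by edgeR). DESeq2 called it (-1.48, adjusted p = 0.00109), as did edgeR with no filter on low counts (-1.52, adjusted p = 0.0431), and the adjusted p ran from 0.00109 to 0.296 over the alternatives. For miR-27a-KD over KPC Scr it was 1.23 ± 0.29 (SE, 2.34-fold higher, adjusted p = 0.0725 by edgeR), and 1.27 ± 0.32 without that library (adjusted p = 0.00829 by edgeR, range over the alternatives 0.00373 to 0.236).

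Fads1 (chr19:10182888-10196877, plus strand), the desaturase that acts after Fads2 and lies near it on the chromosome, had 129, 238 and 110 CPM in miR-27a-KD libraries, against 109, 80.1 and 134 CPM in KPC Scr libraries and 175 and 248 CPM in sham libraries. KPC Scr lay below sham in every library but overlapped miR-27a-KD. Its log2 fold change was -0.97 ± 0.35 in KPC Scr over sham (SE, adjusted p = 0.121 by edgeR, range over the alternatives 0.0657 to 0.434) and 0.56 ± 0.31 in miR-27a-KD over KPC Scr (SE, adjusted p = 0.234 by edgeR).

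**Figure D3:**
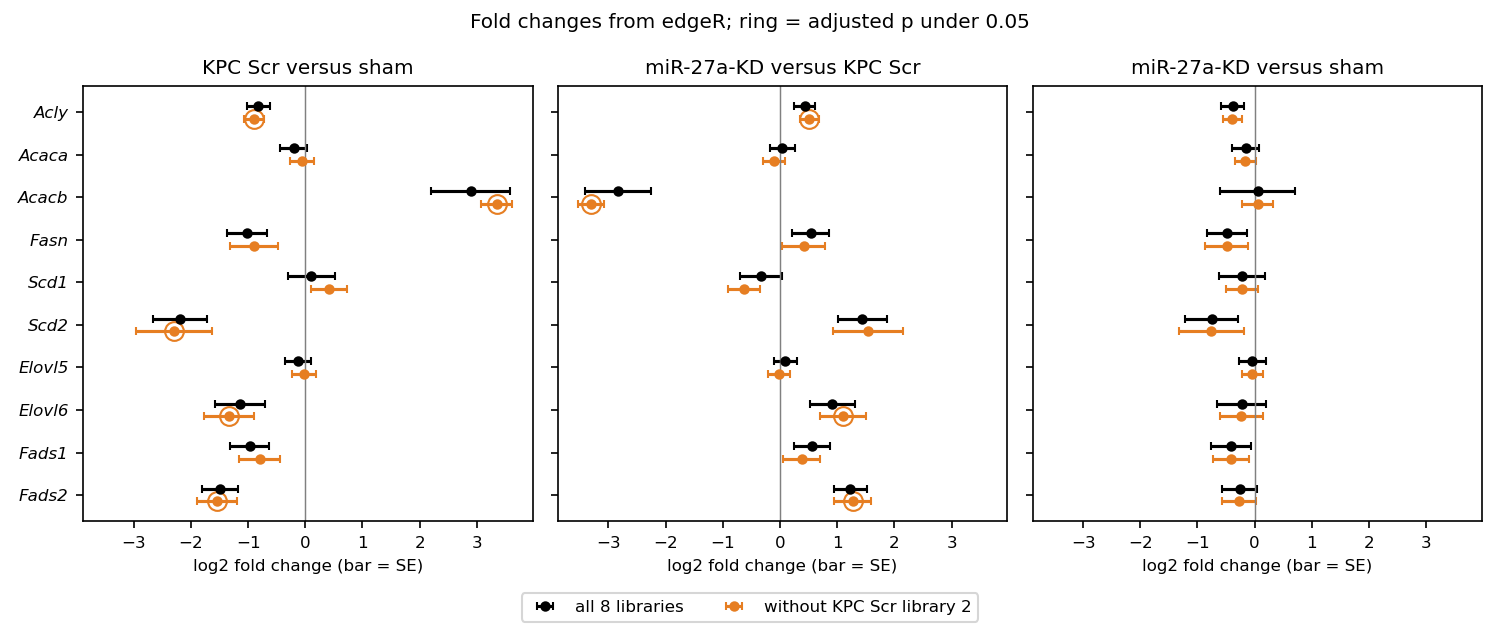
Log2 fold change (horizontal axes, bars are SE) of each enzyme gene in the 3 comparisons, with all 8 libraries in black and without KPC Scr library 2 in orange; rings mark an adjusted p under 0.05. Rings appear only in orange, 5 in the left panel, 4 in the middle panel and 0 in the right panel.

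Between miR-27a-KD and sham no member was called, and none had an unadjusted p under 0.05, where 2.37% of all genes had such a p (1.67% higher and 0.696% lower) and 0.00733% (1 gene, which was higher) were called by edgeR. Without KPC Scr library 2, 0 members were called and 0.236% of all genes (0.170% higher and 0.0664% lower). DESeq2 and limma-voom called 0 members too, and the share of all genes called by limma-voom is not reported here. Of the 10 members 9 had a negative log2 fold change, with a median of -0.25 against -0.00 over all genes. The exception was Acacb at 0.06 ± 0.65 (SE), and the lowest was Scd2 at -0.75 ± 0.46 (SE). Acly alone did not overlap, with all miR-27a-KD libraries below sham (-0.39 ± 0.21, SE), where 13.5% of all genes lay lower and 13.8% higher without overlap. A difference that misses the threshold with 3 and 2 libraries does not show that the levels were alike.

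Within groups, most members were high in the same library. Sham library 2 was above sham library 1 for 10 of 10 members, where 50.5% of all genes were higher in library 2, and the gap was widest for Scd2 and Fasn. Among miR-27a-KD libraries, library 2 was highest for 9 of 10 members, all but Acacb, where 40.0% of all genes were highest in it. KPC Scr library 2 was the lowest of its group for 6 of 10 members (Acaca, Acacb, Fasn, Scd1, Elovl5 and Fads1), against 39.6% of all genes, and the highest for 3 of 10, against 42.6%. The members' summed level was 1088, 1803 and 1051 CPM in miR-27a-KD libraries, 1267, 826 and 1118 CPM in KPC Scr libraries and 1375 and 2170 CPM in sham libraries. Without sham library 2 the log2 fold change of Scd2 was -1.44 in KPC Scr over sham and 0.01 in miR-27a-KD over sham. No label gives a trait that sets these libraries apart, and the source of the spread was not tested.

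Per length, the enzymes differed widely in level. In sham libraries Scd2 stood first at 91.9 ± 53.4 CPM per kilobase of exon, followed by Scd1 at 67.5 ± 15.6, Acly at 61.3 ± 2.89 and Fads1 at 43.9 ± 10.6 (SD, n = 2). The first 3 lie within the spread of Scd2 and are not ordered by these data. Fasn at 19.6 ± 9.83, Elovl5 at 17.4 ± 0.04 and Fads2 at 13.8 ± 2.80 CPM per kilobase formed the middle. The range of Fasn covers that of Elovl5 and overlaps that of Fads2. Within each sham library, both Fasn and Elovl5 lay above Fads2. Elovl6 at 4.68 ± 0.85, Acaca at 2.49 ± 0.10 and Acacb at 1.19 ± 0.43 CPM per kilobase were lowest. Lengths are those of all annotated exons, 17074 bases for Acaca, so that genes with many alternative exons come out low.

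In KPC Scr the order per length was another one. Scd1 at 72.7 ± 39.7 CPM per kilobase stood first and Acly at 34.7 ± 5.82 next, while Scd2 was at 20.2 ± 5.79 (SD, n = 3). Acacb at 8.86 ± 6.39 CPM per kilobase was above Acaca at 2.17 ± 0.41, and it was the higher of the pair in each KPC Scr library, by the least in library 2 (2.18 against 1.76). In miR-27a-KD libraries Scd1 at 57.9 ± 12.9, Scd2 at 54.6 ± 28.4 and Acly at 46.8 ± 7.55 CPM per kilobase led, with overlapping ranges. Scd1 was above Acly within each of these libraries. Acacb was last at 1.24 ± 0.12 (SD, n = 3).

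The genes whose log2 CPM most resembled Fasn over the 8 libraries, by Pearson's r among 10267 genes with a mean of at least 5 CPM, were Pcyt2 (0.960), Fdft1 (0.959), Aacs (0.953), Hsd17b7 (0.938) and Srebf1 (0.926). Fdft1 and Hsd17b7 encode enzymes of cholesterol synthesis, Pcyt2 one of phosphatidylethanolamine synthesis, Aacs acetoacetyl-CoA synthetase, and Srebf1 the precursor of SREBP-1. For Scd1 they were Frmd4b (0.972), Aldh1l1 (0.955), Gna13 (0.952), Stxbp6 (0.947) and Zbtb21 (0.944), none of them an enzyme of fatty acid synthesis. These values describe 8 libraries of 3 groups and share their group differences and library 2 of KPC Scr.

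Of 15 genes of SREBP-1, ChREBP and LXR control, 0 were called in any comparison, and the median log2 fold change was 0.44 in KPC Scr over sham and -0.25 in miR-27a-KD over KPC Scr. Srebf1 averaged 141 ± 33.4 CPM in miR-27a-KD, 121 ± 24.8 CPM in KPC Scr (SD, n = 3 each) and 213 ± 77.5 CPM in sham (SD, n = 2). Its log2 fold change was -0.81 ± 0.29 in KPC Scr over sham (SE, adjusted p = 0.120 by edgeR) and 0.21 ± 0.26 in miR-27a-KD over KPC Scr (SE, adjusted p = 0.568 by edgeR).

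Mlxipl, which encodes the carbohydrate response factor ChREBP, was also highest in KPC Scr. It had 2.82, 1.90 and 3.89 CPM in miR-27a-KD libraries, against 17.7, 6.76 and 26.95 CPM in KPC Scr libraries and 1.39 and 3.12 CPM in sham libraries. Every KPC Scr library was above all others, and library 2 was again the lowest of the 3. The log2 fold change was 2.89 ± 0.66 in KPC Scr over sham (SE, adjusted p = 0.0599 by edgeR) and -2.54 ± 0.53 in miR-27a-KD over KPC Scr (SE, adjusted p = 0.0684 by edgeR). Rxra, the partner receptor of LXR, had 0.88 ± 0.25 (SE, adjusted p = 0.0858 by edgeR) and -0.86 ± 0.22 (SE, adjusted p = 0.0727 by edgeR). Of the 15, 8 were called higher without KPC Scr library 2, and 1 lower, in KPC Scr over sham, and 0 higher and 8 lower in miR-27a-KD over KPC Scr. Such counts without that library, here and for the lists that follow, stand against about 1 in 4 of all genes called in each direction.

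**Figure D4:**
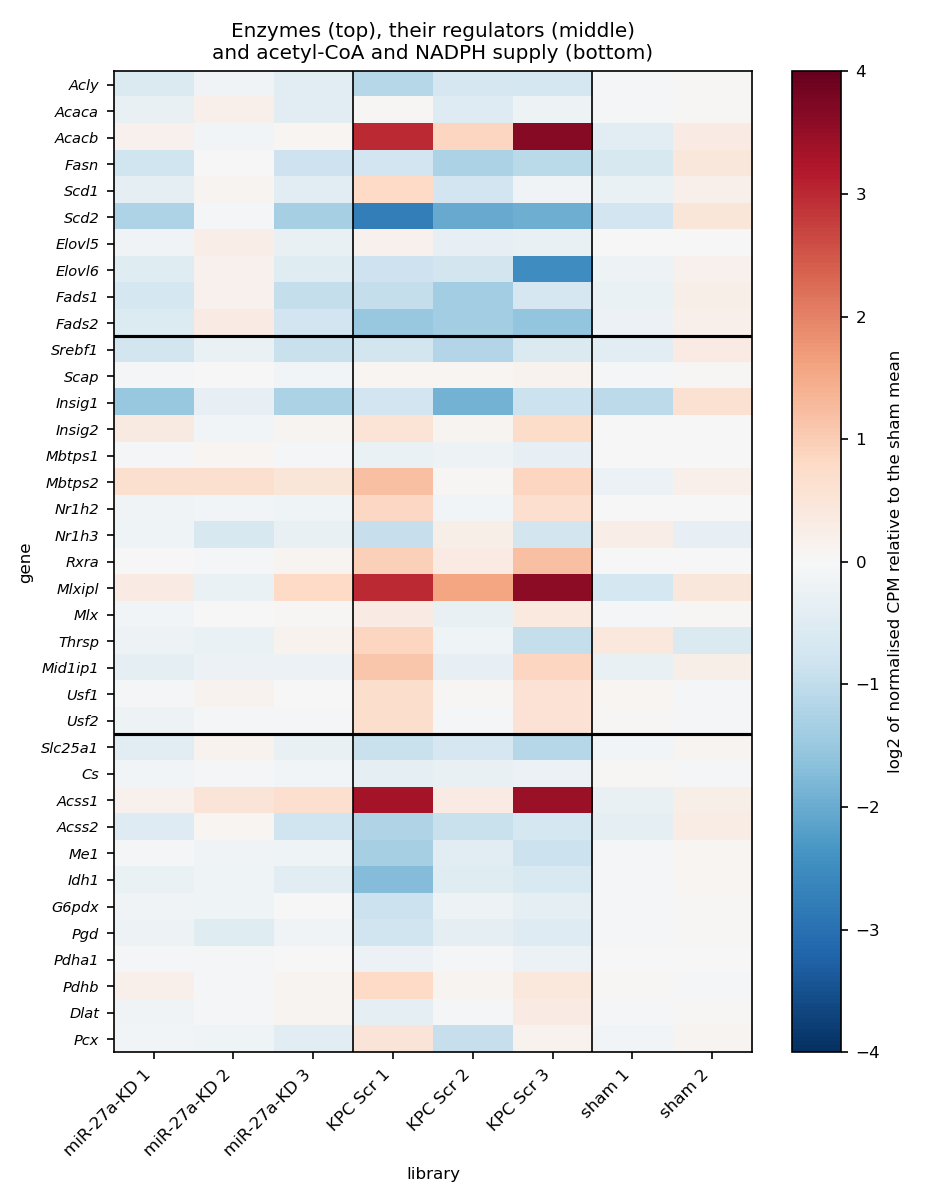
Log2 of normalised CPM relative to the sham mean (colour, blue lower and red higher) for the 10 enzymes, 15 regulators and 12 genes of acetyl-CoA and NADPH supply (vertical axis) in the 8 libraries (horizontal axis). KPC Scr libraries 1 and 3 are darkest red at Acacb, Mlxipl and Acss1, with library 2 paler at each.

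Of 12 genes that supply acetyl-CoA and NADPH, 0 were called, and 8 lay lower in all KPC Scr than in all sham libraries, where 20.8% of all genes did. The citrate carrier Slc25a1 had a log2 fold change of -0.89 ± 0.22 in KPC Scr over sham (SE, adjusted p = 0.0719 by edgeR) and 0.72 ± 0.20 in miR-27a-KD over KPC Scr (SE, adjusted p = 0.0764 by edgeR). Acss1, the mitochondrial acetyl-CoA synthetase, stood on the other side, at 2.88 ± 0.80 (SE, adjusted p = 0.0821 by edgeR) and -2.42 ± 0.65 (SE, adjusted p = 0.0742 by edgeR). Without KPC Scr library 2, 2 were called higher and 6 lower in KPC Scr over sham, and 5 higher and 3 lower in miR-27a-KD over KPC Scr.

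Among the partners of the elongases, 0 of 8 tested genes were called. Tecr, the reductase that ends the elongation cycle, had -0.91 ± 0.22 in KPC Scr over sham (SE, adjusted p = 0.067 by edgeR), and Elovl1, the elongase of very long chains, -0.69 ± 0.21 (SE, adjusted p = 0.0922 by edgeR). In miR-27a-KD over KPC Scr, Hacd4, a dehydratase of the cycle, had 1.96 ± 0.58 (SE, adjusted p = 0.0816 by edgeR) and the ketoreductase Hsd17b12 0.63 ± 0.20 (SE, adjusted p = 0.0879 by edgeR). The Hacd4 level was low, at 3.90, 3.74 and 3.50 CPM in miR-27a-KD libraries and 0.63, 1.94 and 0.06 CPM in KPC Scr libraries, the last from 1 read. Without KPC Scr library 2, 1 was called higher and 4 lower in KPC Scr over sham, and 4 higher and 1 lower in miR-27a-KD over KPC Scr.

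The electron carriers that serve the desaturases had different directions. Cyb5a, cytochrome b5, averaged 604 ± 210 CPM in KPC Scr (SD, n = 3) and 266 ± 12.0 CPM in sham (SD, n = 2), a log2 fold change of 1.18 ± 0.28 (SE, adjusted p = 0.0657 by edgeR), and -1.13 ± 0.25 in miR-27a-KD over KPC Scr (SE, adjusted p = 0.0697 by edgeR). Its reductase Cyb5r3 had -0.80 ± 0.22 in KPC Scr over sham (SE, adjusted p = 0.0814 by edgeR) and 0.58 ± 0.20 in miR-27a-KD over KPC Scr (SE, adjusted p = 0.101 by edgeR). Of the 7 tested genes of other desaturases and their electron supply, 0 were called with all libraries, and without KPC Scr library 2 there were 1 higher and 4 lower in KPC Scr over sham and 1 higher and 1 lower in miR-27a-KD over KPC Scr.

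Cholesterol synthesis, the neighbouring lipid pathway governed by SREBP-2, was the list with calls from all 8 libraries. In KPC Scr over sham 4 of 16 genes fell, Srebf2 by 1.68 ± 0.24 (SE, adjusted p = 0.0206 by edgeR), Sqle by 3.42 ± 0.52 (SE, adjusted p = 0.0252 by edgeR), Mvd by 2.29 ± 0.44 (SE, adjusted p = 0.0444 by edgeR) and Hmgcs1 by 2.55 ± 0.50 (SE, adjusted p = 0.0452 by edgeR) on the log2 scale. The median was -2.28, against -0.90 for the fatty acid enzymes, and 16 of 16 lay lower in all KPC Scr than in all sham libraries. In miR-27a-KD over KPC Scr the median was 1.59 with 0 called, and 14 of 16 had an unadjusted p under 0.05. Leaving out KPC Scr library 2, 13 were called lower in KPC Scr over sham and 12 higher in miR-27a-KD over KPC Scr.

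**Figure D5:**
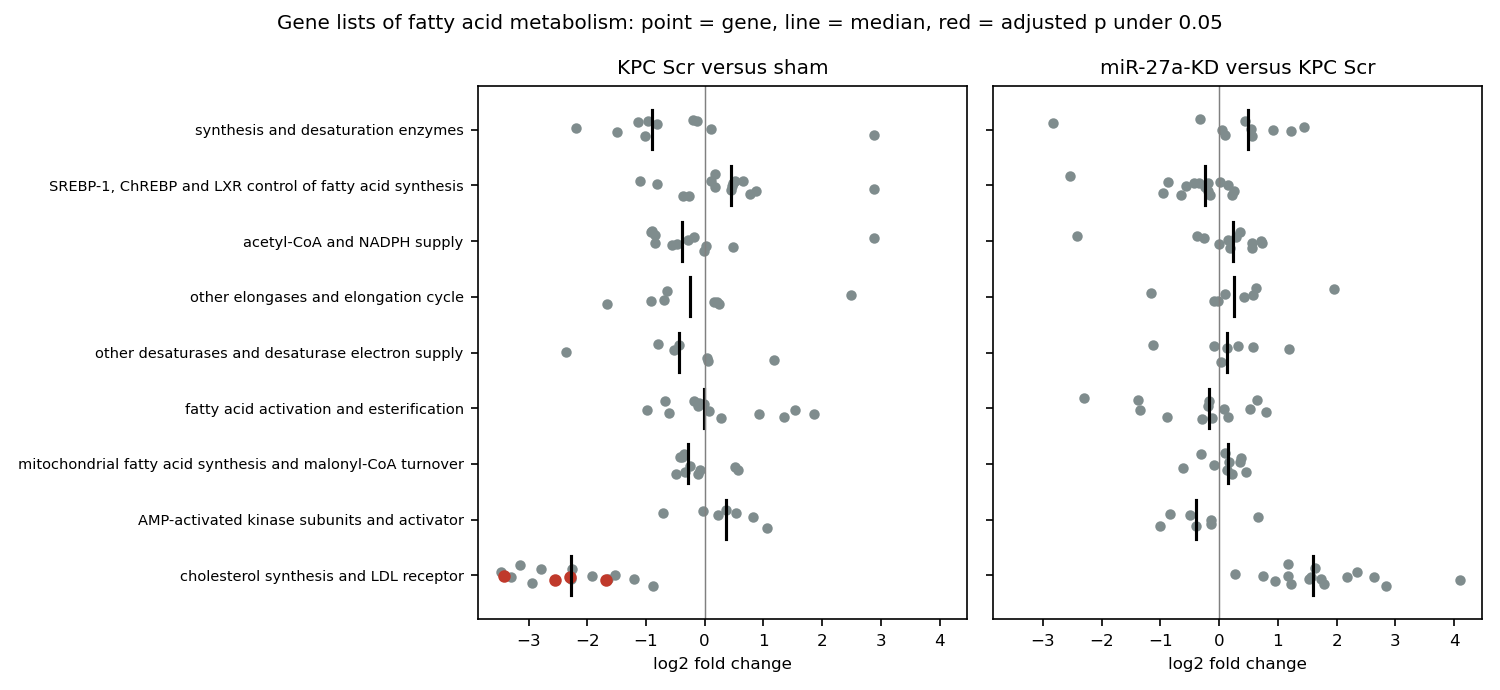
Log2 fold change (horizontal axes) of each tested gene of the fatty acid enzymes and 8 related lists (vertical axis) in KPC Scr over sham and miR-27a-KD over KPC Scr, with a line at each median and red for an adjusted p under 0.05. Red appears only for 4 cholesterol genes on the left, and the enzymes spread from -2.19 (Scd2) to 2.89 (Acacb) there.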

How the data were processed

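The authors gave, as deposited, raw counts per gene symbol for 8 stranded mRNA libraries, read in pairs of 59 bases, from RNA with an integrity number of 7 or more. The submitters' processing notes name mm10 as build, and R 4.2.1, DESeq2 1.36.0, STAR, Bowtie and bcl2fastq 2.20 as tools with no roles. For the counts, the tool, annotation and strand setting were not given in the sources used here.

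Counts were analysed in R 4.3.3 with edgeR 4.0.16: filterByExpr (minimum count 10, total 15), TMM, and a robust quasi-likelihood fit of 3 group means over 8 libraries. Tests were two-sided, adjusted by Benjamini and Hochberg over 13646 genes, threshold 0.05. The fit was tested on simulated data. DESeq2 1.42.0, DESeq2's size factors, limma-voom (limma 3.58.1), no filter, fits of only the compared groups, a replicate block and each library left out were alternatives, 14 in all. SEs were derived from the F statistic. Groups did not overlap when every CPM of one lay beyond the other's. Coordinates come from GENCODE M21 (GRCm38, as mm10) and promoters from RefSeq (GRCm38.p6).

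The members, lists and tests were chosen with earlier results of these data known. All members were named, and from each list the called genes or up to 2 with the smallest p per comparison. For Fasn and Scd1 the 5 genes with the highest r were named. Proteins, and 1 listed gene without a row, were not analysed here. Some single-gene and marker results are not reported here. Counting error covers reads, not molecules. That libraries came from separate mice rests on the labels' word biological.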

Additional observations from a re-analysis of the deposited data

How the results depend on the processing

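Over the 14 alternatives and 3 comparisons, 384 of 420 member values kept their direction and side of the threshold (none was past it with all libraries), 18 passed it and 18 turned sign, all of these with an adjusted p above 0.05. With all libraries, called genes numbered 215 in KPC Scr over sham, 7 in miR-27a-KD over KPC Scr and 1 in miR-27a-KD over sham. They numbered 2074, 2320 and 25 with DESeq2, 4, 0 and 101 when only the compared groups were fitted, and 11 and 2 in the last pair of comparisons with no filter. Leaving out 1 library gave 0 to 6908, 0 to 7313 and 0 to 32. Members called numbered 4 and 3 with DESeq2 in the first pair of comparisons, 2 in KPC Scr over sham with no filter, and 0 to 5 and 0 to 4 when 1 library was left out.

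Scd1 in KPC Scr over sham was -0.019 with limma-voom. When 1 library was left out, log2 fold changes ran from -0.42 to 0.41 for Scd1 in KPC Scr over sham. In miR-27a-KD over KPC Scr they ran from -0.17 to 0.19 for Acaca, -0.086 to 0.28 for Elovl5 and -0.64 to 0.19 for Scd1. In miR-27a-KD over sham they ran from -0.27 to 0.49 for Acacb, -0.22 to 0.079 for Elovl5, -0.93 to 0.14 for Fasn, -0.44 to 0.034 for Scd1 and -1.27 to 0.0069 for Scd2. The causes were not tested. An arm left with 1 sham library is assumed to vary like the other groups.

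The replicate numbers gave correlations of 0.07, -0.001 and 0.17 between same-numbered KPC Scr and miR-27a-KD libraries. Between differently numbered libraries of these groups they ran from -0.15 to 0.07. Such values from 3 libraries per group cannot show whether the numbers pair the samples. With the replicate block 16, 0 and 0 genes and 0 members in each comparison were called, and in miR-27a-KD over sham Acacb turned to -0.29, Elovl5 to 0.059 and Elovl6 to 0.086. With 2 sham libraries, and KPC Scr library 2 apart from its group, the size of every KPC Scr difference is loosely bounded.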

Other observations

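Genes downstream of and beside the enzymes were also listed. Of 13 genes that activate and esterify fatty acids, 0 were called with all libraries, and the median log2 fold change was -0.02 in KPC Scr over sham and -0.17 in miR-27a-KD over KPC Scr. Lpin1, a phosphatidate phosphatase of triglyceride synthesis, had 1.35 ± 0.41 in KPC Scr over sham (SE, adjusted p = 0.0965 by edgeR) and -1.39 ± 0.36 in miR-27a-KD over KPC Scr (SE, adjusted p = 0.0727 by edgeR). Acsl1, which activates fatty acids, had 1.54 ± 0.50 in KPC Scr over sham (SE, adjusted p = 0.105 by edgeR), and Dgat2, which makes triglyceride, -2.31 ± 0.68 in miR-27a-KD over KPC Scr (SE, adjusted p = 0.0815 by edgeR). Without KPC Scr library 2, 4 of the list were called higher and 2 lower in KPC Scr over sham, and 2 higher and 5 lower in miR-27a-KD over KPC Scr. In that fit 25.4% of all genes were called higher and 25.6% lower in KPC Scr over sham, and 27.3% higher and 26.6% lower in miR-27a-KD over KPC Scr, so that these counts of 13 genes lie near or below the share of all genes except for the 5 lower.

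The mitochondrial fatty acid synthesis list, a separate pathway that makes the precursor of lipoate, had medians of -0.29 in KPC Scr over sham and 0.15 in miR-27a-KD over KPC Scr and 0 of 10 called. Mlycd, which breaks down malonyl-CoA, had 0.57 ± 0.28 in KPC Scr over sham (SE, adjusted p = 0.203 by edgeR) and -0.61 ± 0.25 in miR-27a-KD over KPC Scr (SE, adjusted p = 0.129 by edgeR). The kinase AMPK inactivates both carboxylases by phosphorylation. Of 7 tested genes of its subunits and activator 0 were called, and Stk11, the activating kinase LKB1, had 0.82 ± 0.24 in KPC Scr over sham (SE, adjusted p = 0.0913 by edgeR) and -0.84 ± 0.21 in miR-27a-KD over KPC Scr (SE, adjusted p = 0.0727 by edgeR). The subunit gene Prkab2 had -0.71 ± 0.31 in KPC Scr over sham (SE, adjusted p = 0.171 by edgeR), and Prkaa2 -1.01 ± 0.41 in miR-27a-KD over KPC Scr (SE, adjusted p = 0.131 by edgeR). Without KPC Scr library 2, 5 of the 7 were called higher and 1 lower in KPC Scr over sham. In miR-27a-KD over KPC Scr 1 was then called higher and 4 lower. These counts stand against about 1 in 4 of all genes called in each direction.

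Markers of further cell types were at low or uneven levels. Leukocyte genes summed to 11.7 to 34.6 CPM in miR-27a-KD, 15.8 to 34.2 CPM in KPC Scr and 12.1 to 17.3 CPM in sham libraries. Of 6 tested genes, 5 had a positive log2 fold change in KPC Scr over sham. In miR-27a-KD over KPC Scr and over sham 4 were positive. Muscle stem cell genes summed to 53.2 to 79.3 CPM in miR-27a-KD, 18.1 to 58.8 CPM in KPC Scr and 34.8 to 46.5 CPM in sham libraries. Of this, Vcam1 alone had 45.4, 71.6 and 46.3 CPM in miR-27a-KD, 10.8, 47.8 and 9.89 CPM in KPC Scr and 30.6 and 39.8 CPM in sham libraries. Itga7, which encodes the α7-integrin that the sort excluded, was higher in every KPC Scr than in every sham library. It had 5.96, 8.41 and 11.5 CPM in KPC Scr and 2.78 and 4.02 CPM in sham libraries, and at most 7.17 CPM in miR-27a-KD. Without KPC Scr library 2, edgeR called Itga7 higher and Vcam1 lower in KPC Scr over sham. In that fit 25.4% of all genes were called higher and 25.6% lower. Pax7, Myf5 and Myod1 reached at most 1.01, 0.44 and 1.45 CPM in any library. Epithelial genes summed to 5.03 to 8.32 CPM in miR-27a-KD, 4.41 to 18.3 CPM in KPC Scr and 4.35 to 5.63 CPM in sham libraries. Their part in the enzyme differences was not tested.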
